A study of Mus musculus with 12 samples.

Results

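A set of 8 named genes of the mouse aldehyde dehydrogenase and aldo-keto reductase families was followed in immortalized tumor-initiating cells, from hypoxic culture through days 1 to 7 in normoxia. They were chosen by name (Aldh1a1, Aldh1a3, Aldh1a7, Aldh2, Aldh3a1, Aldh3a2, Akr1b8 and Akr1c18), with earlier results of these arrays known. All 13 named probes of these 8 genes were taken, of 45281 probes for 19057 named genes on the array. A probe counted as measured when 3 or more of the 12 arrays detected it, at a detection p-value below 0.05. This held for 9 of the 13 probes and 6 of the 8 genes. Aldh1a1 and Aldh1a7 were not kept.

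Normoxic cells had been moved into a standard medium with a DMEM base and 21% O2, and were arrayed once on each of days 1 to 6 and in triplicate on day 7. Hypoxic cells, also in triplicate, grew at 3% O2 in serum-free mammary stem cell medium with an MEBM base and 2% Cultrex, a basement membrane extract. The labels describe the cells on all arrays in the same words, as immortalized tumor-initiating cells, and do not say whether they are 1 clone. Oxygen and medium changed together, so their effects cannot be told apart. The labels do not say whether the replicates were grown separately. The p-values therefore rest on a spread between samples that could be technical only.

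Aldehyde dehydrogenases oxidise aldehydes to acids, and the enzymes of the Aldh1a group make retinoic acid, the ligand of nuclear retinoic acid receptors, from retinaldehyde. Aldehyde dehydrogenase activity, to which Aldh1a1 and Aldh1a3 contribute, is widely used to enrich mammary stem cells and tumor-initiating cells. Aldo-keto reductases work in the opposite direction and reduce aldehydes and ketones, including lipid aldehydes, steroids and prostaglandins. Genes of both families are known targets of NRF2, the factor of the oxidant response, and Aldh3a1 is a known target of the aryl hydrocarbon receptor (AhR).

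The 12 arrays detected 34.3% to 37.7% of probes, and replicates had a median SD of 0.19 (day 7) and 0.17 (hypoxic) on the log2 scale. Levels below are log2 values after background correction and quantile normalization with neqc, and comparisons are made within a probe, since levels of different probes have no common scale. Basal epithelial markers (Krt5, Krt14, Krt17, Trp63 and Acta2, but not Myh11) were detected on every day 7 and every hypoxic array. The summed linear level of all 6 was 40900 to 46400 on day 7, 60300 to 63900 on days 1 to 3 and 43900 to 51200 in hypoxic cells. On the log2 scale Krt5 averaged 8.93 on day 7, against 10.49 in hypoxic cells, and Trp63 9.50 against 11.31. Krt14 averaged 14.15 against 14.37, Krt17 13.60 against 13.82 and Acta2 13.54 against 12.84. Of 8 luminal markers, 5 were detected on every day 7 array and 6 on every hypoxic array, and Pgr on none of them. The summed level of the luminal markers was 9370 to 9610 on day 7, 21200 to 27300 on days 1 to 3 and 17900 to 19700 in hypoxic cells, on the linear scale. The summed level of 7 fibroblast markers was 2000 to 2200 on day 7, 497 to 1000 on days 1 to 3 and 433 to 532 in hypoxic cells. Dcn averaged 10.40 on day 7, against 6.63 in hypoxic cells, on the log2 scale, and Pdgfra, also detected on every array of both triplicates, averaged 7.39 and 7.83 in the same order. Col1a1 was detected on all 3 day 7 arrays and 0 hypoxic arrays, and Thy1 in neither triplicate. The macrophage list had 1 gene, Cd14, detected on every array of both triplicates, Ptprc and Adgre1 were detected in neither, and its sum was 1690 to 2250 on day 7, against 565 to 705 in hypoxic cells. Whether these shifts in marker levels have a part in the results below was not tested. In RNA from whole cultures, fewer cells of a type and less RNA per cell cannot be told apart.

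The promoters of the 2 aldo-keto reductases are shown because both genes stood higher on all 9 normoxic arrays than on any hypoxic array. The 250 bases before each start were taken from RefSeq (GRCm38.p6), on the gene's own strand, and capitals mark a match to the core of the xenobiotic response element. Akr1b8 lies at chr6:34353896-34354145 (+ strand), and Akr1c18 at chr13:4150647-4150896 (- strand).
Akr1b8: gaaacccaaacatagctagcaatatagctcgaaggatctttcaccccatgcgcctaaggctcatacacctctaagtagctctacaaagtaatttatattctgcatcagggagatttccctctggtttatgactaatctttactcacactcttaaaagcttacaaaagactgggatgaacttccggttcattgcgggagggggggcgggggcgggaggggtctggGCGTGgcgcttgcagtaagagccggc
Akr1c18: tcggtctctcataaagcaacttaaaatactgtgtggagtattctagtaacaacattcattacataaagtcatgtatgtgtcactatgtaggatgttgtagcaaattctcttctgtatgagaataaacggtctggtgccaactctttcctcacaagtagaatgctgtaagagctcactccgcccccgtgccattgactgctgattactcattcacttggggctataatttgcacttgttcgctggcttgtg
Both strands were searched for that core, NGCGTG, to which AhR binds, and for the core of the antioxidant response element, TGACNNNGC, to which NRF2 binds. The first core was found in the Akr1b8 window, its first letter 27 bases before the start, and in the Aldh3a2 window, 118 bases before it. It was not found in the windows of Akr1c18, Aldh1a1 or Aldh1a7. The antioxidant core was in none of the windows of these 5 genes. Among 32851 RefSeq promoters, windows of the same length held the xenobiotic core in 28.1% and the antioxidant core in 10.2%. The promoters of Aldh1a3, Aldh2 and Aldh3a1 are not analysed here.

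Of the 6 measured genes, 4 passed the threshold as higher on day 7 than in hypoxic cells (Aldh1a3, Aldh3a1, Akr1b8 and Akr1c18), 1 passed as lower (Aldh2) and 1 did not pass (Aldh3a2), at an adjusted p below 0.05 in limma over all genes. Of all 10365 genes tested, 59.7% passed in this comparison, 25.9% as higher and 33.7% as lower. The day 7 and hypoxic values did not overlap for 5 of the 6 genes, as for 66% of all genes. The genes were chosen with these values in view, and Aldh1a3 passed the detection filter only through the arrays where it was high. The counts are therefore a description, support nothing, and are given without p-values for single members.

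**Figure D1:**
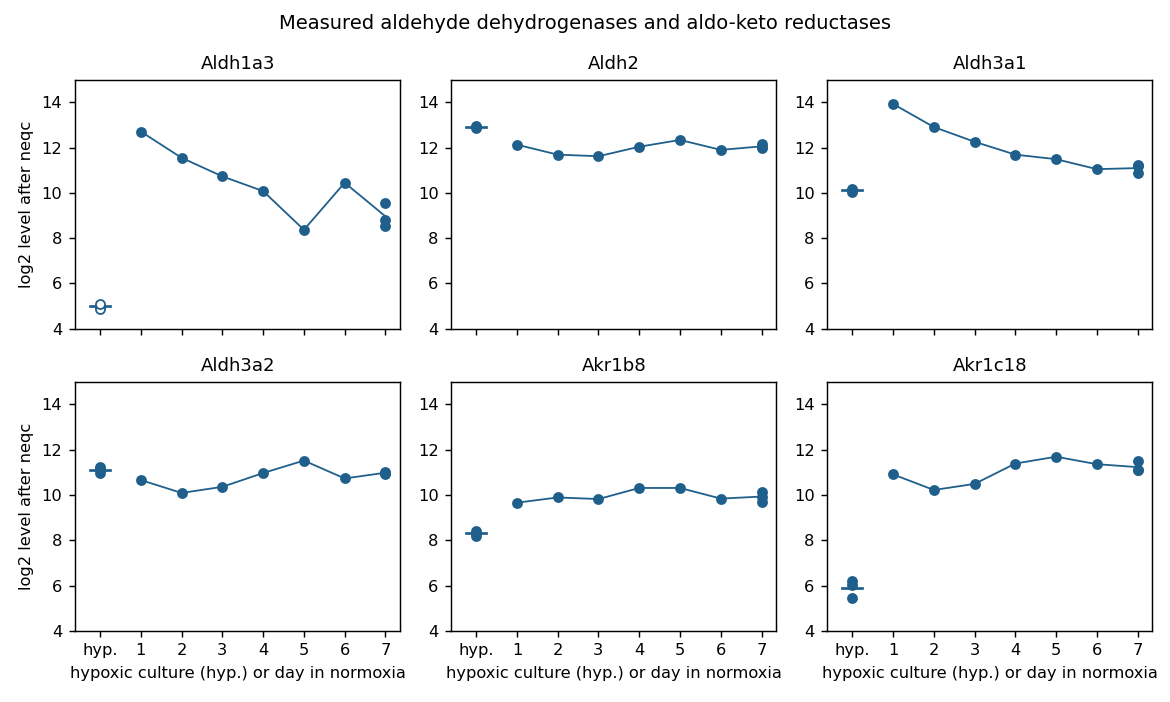
Log2 levels after neqc of the 6 measured genes, each by its brightest probe, in hypoxic culture (hyp., 3 arrays) and on normoxic days 1 to 6 (1 array each) and 7 (3 arrays). Points are arrays, filled where detected and open where not; the line joins normoxic means and the short bar is the hypoxic mean. Aldh1a3 and Aldh3a1 stand highest on day 1 (12.71 and 13.93), whereas Akr1c18 is highest on day 5 (11.69).

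Aldh1a3, the retinaldehyde dehydrogenase of this set that was measured, was not detected in hypoxic cells and was detected on every normoxic array. Its brightest probe, ILMN_1237578, is annotated to the cDNA AK043530. That probe read 4.98, 4.88 and 5.11 on the hypoxic arrays, then 12.71, 11.55, 10.73, 10.08, 8.37 and 10.45 on days 1 to 6, and 8.80, 8.55 and 9.54 on day 7. The level was highest after 1 day and lower on each day to day 5, with a higher value again on day 6. No normoxic value came near the hypoxic ones, and the probe passed the detection filter through the normoxic arrays alone.

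Since the hypoxic signal was not above background, fold differences of this probe are lower bounds on the neqc scale. Each was set against the higher of the lowest detected signal on each hypoxic array and the probe's own. On day 7 the mean level was 8.96 ± 0.51 (SD, n = 3), against a background-level reading of 4.99 ± 0.11 in hypoxic cells (n = 3), a fitted log2 difference of 3.97 ± 0.25 (SE) and at least 12.1-fold higher. The fitted difference was 2.32 with the mean over probes and 2.12 with arrays set to equal medians of all probes without background correction. On day 1 it was at least 162-fold higher, on day 2 at least 72.7-fold, on day 3 at least 41.0-fold, on day 5 at least 8.02-fold and on day 6 at least 33.8-fold. Averaged over days 1 to 3 it was at least 78.5-fold higher. Across the 9 normoxic arrays the fitted slope was -0.54 ± 0.10 (SE) log2 units per day. In order of level, day 3, day 6 and day 4 followed each other by gaps no wider than the pooled SD of the triplicates, 0.37, and the other neighbours were further apart.

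A second probe of Aldh1a3, ILMN_2761436, annotated to the RefSeq transcript NM_053080, was likewise undetected in hypoxic cells and highest on day 1, with smaller differences. It read 5.37, 4.80 and 5.21 on the hypoxic arrays, all undetected, then 8.89, 6.76, 7.10, 5.53, 5.48 and 7.07 on days 1 to 6, and 5.66, 5.59 and 6.12 on day 7. It was detected on 8 of the 9 normoxic arrays, the exception being day 5. Its day 7 mean was 5.79 ± 0.29, against 5.13 ± 0.30 in hypoxic cells (SD, n = 3 each), a log2 difference of 0.66 ± 0.21 (SE) and at least 1.34-fold higher. Over days 1 to 3 it was at least 4.63-fold higher, and on day 1 at least 11.5-fold.

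The third probe, ILMN_1235590, annotated to the cDNA AK086764, was detected on 0 of 12 arrays, with values of 4.44 to 4.61. No call on the gene rests on it. Between the first and second probes, Pearson's r was 0.825 and Spearman's rho 0.93 over the 12 arrays. Over the 9 normoxic arrays r was 0.895, and 0.802 without day 1. Both probes were read from the same 12 hybridisations, so these are descriptions of agreement between probes. Both showed day 1 highest, and day 6 above days 4, 5 and 7, while on day 7 the first was far above its hypoxic readings and the second only little above them.

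**Figure D2:**
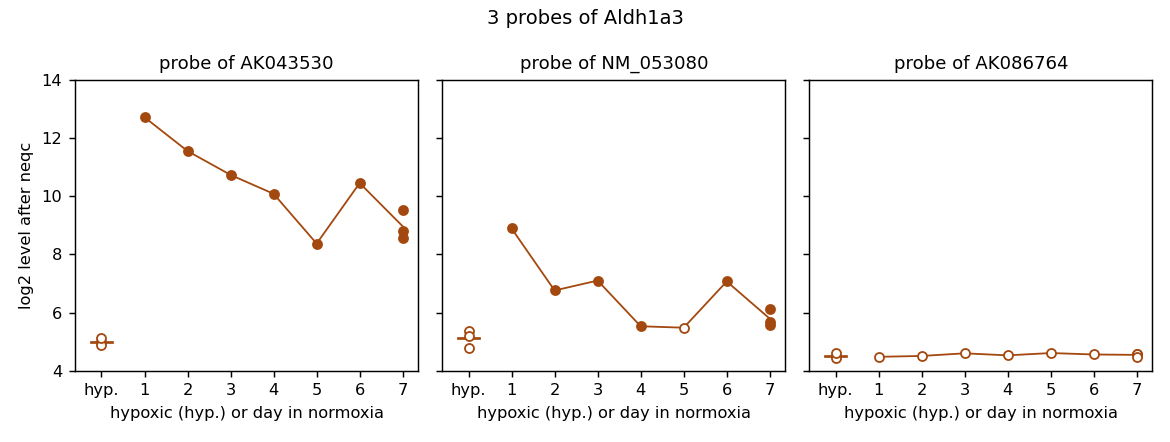
Log2 levels after neqc of the 3 probes of Aldh1a3 in hypoxic culture (hyp., 3 arrays) and on normoxic days 1 to 7 (1 array a day, 3 on day 7), with detected values filled and undetected ones open. The AK043530 probe reached 12.71 and the NM_053080 probe 8.89 on day 1, and the AK086764 probe stayed between 4.44 and 4.61.

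The other Aldh1a genes of the set gave almost no signal. Aldh1a1, the retinaldehyde dehydrogenase most used as a stem cell marker, was detected on the day 4 array alone, at 6.17, and its other 11 readings were undetected. Aldh1a7, a rodent gene closely related to Aldh1a1, was detected on hypoxic replicate 3 alone, at 5.56, and a day 7 array of nearly the same level, 5.55, missed the detection threshold. Neither gene therefore has a comparison between groups here. Aldh1a2, the third retinaldehyde dehydrogenase of the group, was detected on 1 hypoxic array, on the arrays of days 2 and 3 and on 0 day 7 arrays. Between day 7 and hypoxic cells it did not pass the threshold (limma adjusted p = 0.227).

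Aldh3a1, which oxidises aromatic and lipid-derived aldehydes and is known as an abundant protein of the cornea, followed a course like that of Aldh1a3 from a high hypoxic level. It read 10.02, 10.15 and 10.19 in hypoxic cells, 13.93, 12.91, 12.26, 11.69, 11.49 and 11.05 on days 1 to 6, and 11.21, 10.86 and 11.22 on day 7. Each normoxic value lay above each hypoxic one, with the widest gap on day 1. The day 7 mean was 11.10 ± 0.21, against 10.12 ± 0.09 in hypoxic cells (SD, n = 3 each), a log2 difference of 0.98 ± 0.14 (SE), or 1.97-fold higher. On day 1 it was 13.98-fold higher than the hypoxic mean, and over days 1 to 3 it was 7.54-fold higher. The normoxic slope was -0.42 ± 0.05 log2 units per day. Days 6 and 7 were the only neighbours in the order of levels closer than the pooled SD of 0.16.

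Aldh2, the mitochondrial enzyme that clears acetaldehyde, moved the other way. Its probe read 12.96, 12.93 and 12.85 in hypoxic cells, 12.13, 11.69, 11.62, 12.04, 12.34 and 11.90 on days 1 to 6, and 12.16, 12.04 and 11.97 on day 7. All 9 normoxic values lay below all 3 hypoxic values, and the lowest were those of days 2 and 3. On day 7 the mean was 12.06 ± 0.10, against 12.92 ± 0.06 in hypoxic cells (SD, n = 3 each), a log2 difference of -0.86 ± 0.12 (SE), or 1.82-fold lower. The difference was -1.10 ± 0.12 over days 1 to 3. It was -0.43 for day 7 under another scaling, in which arrays without background correction were set to equal medians of the probes that all of them detected.

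Aldh3a2, which oxidises long-chain fatty aldehydes at the endoplasmic reticulum, had the nearest values on day 7 and in hypoxic cells. Its brightest probe, ILMN_2925350, read 11.22, 10.95 and 11.16 in hypoxic cells, 10.66, 10.09, 10.36, 10.97, 11.52 and 10.73 on days 1 to 6, and 10.94, 11.03 and 10.98 on day 7. The triplicates overlapped, days 1 to 3 lay below every hypoxic value and day 5 lay above every hypoxic value. The day 7 mean was 10.98 ± 0.05, against 11.11 ± 0.14 in hypoxic cells (SD, n = 3 each), a log2 difference of -0.13 ± 0.12 (SE), whose sign turned to 0.07 under that other scaling. Over days 1 to 3 the difference was -0.74 ± 0.12, with day 2 the lowest array at 2.03-fold below the hypoxic mean. A further probe of the same transcript, ILMN_2456946, had log2 differences of -0.07 on day 7 and -0.75 over days 1 to 3, and its r with the first was 0.932 over 12 arrays. The remaining probes, annotated to the cDNAs AK051219 and AK078243, were detected on 3 and 0 arrays.

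Akr1b8, an aldose reductase-like enzyme that reduces lipid aldehydes, stood higher from the first day and stayed within a narrow range. It read 8.19, 8.41 and 8.31 in hypoxic cells, 9.66, 9.89, 9.82, 10.31, 10.31 and 9.84 on days 1 to 6, and 9.93, 9.71 and 10.15 on day 7. The lowest normoxic value, that of day 1, was above the highest hypoxic one. The day 7 mean was 9.93 ± 0.22, against 8.30 ± 0.11 in hypoxic cells (SD, n = 3 each), a log2 difference of 1.63 ± 0.15 (SE), or 3.09-fold higher. Over days 1 to 3 the difference was 1.49 ± 0.15, and the normoxic slope was 0.02 ± 0.04 per day.

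Akr1c18, the mouse hydroxysteroid dehydrogenase that inactivates progesterone, was far higher in normoxia. It read 6.04, 5.47 and 6.18 in hypoxic cells, 10.91, 10.22, 10.49, 11.39, 11.69 and 11.36 on days 1 to 6, and 11.10, 11.10 and 11.49 on day 7. Detected on all 12 arrays, it was low in each hypoxic sample and high in each normoxic one, with days 2 and 3 the lowest normoxic days. The day 7 mean was 11.23 ± 0.22, against 5.89 ± 0.38 in hypoxic cells (SD, n = 3 each), a log2 difference of 5.34 ± 0.22 (SE), or 40.4-fold higher. Without background correction the log2 difference was 4.05 after quantile normalization and 3.92 with arrays set to equal medians of all probes. Single normoxic arrays stood 20.1-fold (day 2) to 55.4-fold (day 5) above the hypoxic mean.

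The 6 genes thus differed in their timing. Days 1 to 3 against hypoxic and day 7 against hypoxic share the 3 hypoxic arrays, so the values are given side by side without a test between them. Aldh1a3, undetected in hypoxic cells, has bounds only, on the neqc scale. By its brightest probe it was at least 78.5-fold higher over days 1 to 3 and at least 12.1-fold higher on day 7. By its second probe the bounds were 4.63-fold and 1.34-fold. For Aldh3a1 the log2 differences were 2.91 and 0.98 in the same order. For Akr1c18 they were 4.65 and 5.34, for Akr1b8 1.49 and 1.63, for Aldh2 -1.10 and -0.86, and for Aldh3a2 -0.74 and -0.13. In the first of these comparisons 4 of the 6 genes passed as higher and 2 as lower, where 54.9% of all genes passed, 25.6% as higher and 29.2% as lower. Over the normoxic days, 2 of the 6 genes (Aldh1a3 and Aldh3a1) had a slope below that threshold as falling and 0 as rising, again a description, where 35.5% of all genes passed, 19% as falling and 16.5% as rising.

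The deposited tables divide the arrays into 2 sets of 6. The authors' table of processed values holds the arrays of set a only, and no label says that the arrays of a set were handled together. Hypoxic replicates 1 and 2, day 7 replicate 1 and all arrays of days 1 to 3 form set b. The arrays of days 4 to 6, hypoxic replicate 3 and the remaining pair of day 7 replicates form set a. Days 1 to 3 and days 4 to 6 therefore lie in different sets, and each set holds hypoxic and day 7 arrays of its own. Within set b, the brightest probe of Aldh1a3 differed from its undetected hypoxic readings by 6.73 over days 1 to 3 and by 3.87 on day 7. Within set a it differed by 4.53 over days 4 to 6 and by 3.94 on day 7. The second probe of Aldh1a3 differed by 2.50, 0.57, 0.82 and 0.64 in the same order. Aldh3a1 differed by 2.95 and 1.13 within set b, and by 1.22 and 0.85 within set a, in the same order. For Akr1c18 the 4 values were 4.79, 5.35, 5.30 and 5.12, and for Aldh2 they were -1.13, -0.79, -0.76 and -0.85. The direction in each set was that of the pooled comparison for these genes and for Akr1b8. With set as a block, the normoxic slope was -0.50 ± 0.13 (SE) for Aldh1a3 and -0.36 ± 0.06 for Aldh3a1, while calls on slopes over all genes numbered 2096 in place of 3678.

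Across the 12 arrays the levels of Aldh1a3 and Aldh3a1 had r = 0.898, and 0.877 over the 9 normoxic arrays. Akr1b8 and Akr1c18 had r = 0.97 over all arrays and 0.592 within normoxia. Aldh2 and Aldh3a2 had r = 0.658 over all arrays and 0.87 within normoxia, and Aldh3a2 and Akr1c18 had r = -0.199 over all arrays and 0.91 within normoxia. All these arrays share their hybridisations and, in the case of the single days, 1 time course, so the coefficients are descriptions.

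The genes whose patterns were most like each member were taken as the 2 with the highest r over 12 arrays among all genes measured. For Aldh1a3 they were Krtdap, a secreted protein of differentiating keratinocytes (r = 0.9905), and Cryba4, a lens crystallin (r = 0.9874). Krtdap read 5.34 to 5.55 in hypoxic cells, 12.99 on day 1 and 9.41 to 9.72 on day 7. For Aldh3a1 they were Lor, the cornified envelope protein loricrin (r = 0.9903), and Dmkn, the epidermal protein dermokine (r = 0.9871). Lor, detected on 9 of the 12 arrays, read 5.01 to 5.31 in hypoxic cells, 11.06 on day 1 and 6.52 to 6.62 on day 7. Aldh3a1 itself read 10.02 to 10.19 in hypoxic cells, so the high r does not mean like levels.

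Aldh2 was most like Ypel3 (r = 0.9917) and Yipf3 (r = 0.9878), both lower on every normoxic array than on any hypoxic one. Aldh3a2 was most like Ctns, the lysosomal cystine carrier (r = 0.9537), and Lcn2, the iron-siderophore binder lipocalin (r = 0.9367). Akr1b8 was nearest to Twist2, a basic helix-loop-helix factor (r = 0.978), and to Camk2n2, an inhibitor of calmodulin kinase (r = 0.9776). Akr1c18 was nearest to Nubp2 (r = 0.9925) and Wfdc2 (r = 0.9866), whose levels spanned far less. Nubp2 read 10.28 to 10.34 on day 7, against 9.30 to 9.35 in hypoxic cells.

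Of the other aldehyde dehydrogenases measured, more fell than rose on day 7, as among all genes (33.7% lower and 25.9% higher). Of 14 further Aldh genes, 10 were measured, of which 1 rose, 6 fell and 3 did not pass, with a median log2 difference of -0.78 beside -0.11 for all genes. With set as a block 6 fell, within set b alone 6 and within set a alone 1, with 3 of the 6 replicate arrays in each set. Aldh6a1, the methylmalonate semialdehyde dehydrogenase of valine breakdown, fell furthest. It read 6.86, 7.24 and 7.14 on day 7, against 10.24, 9.75 and 10.12 in hypoxic cells, a log2 difference of -2.95 ± 0.17 (SE) with a limma adjusted p of 2.35e-05. Its lowest array was day 2, at 5.35, and the smallest difference under an alternative setting was -2.23.

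Aldh1l2, the mitochondrial enzyme that oxidises formyl-tetrahydrofolate, was lowest early and later moved towards its hypoxic level. It read 11.53, 11.46 and 11.60 in hypoxic cells, 7.77, 7.59, 8.46, 8.99, 10.33 and 8.91 on days 1 to 6, and 10.17, 10.32 and 9.29 on day 7. On day 7 it was 1.61 ± 0.26 log2 units below hypoxic cells (limma adjusted p = 0.00148), where days 1 to 3 were 3.59 below (adjusted p = 4.69e-05). Its normoxic slope was 0.38 per day (adjusted p = 0.00448), and 0.36 with set as a block (adjusted p = 0.0345). A second probe differed by -1.95 ± 0.41 on day 7.

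Aldh18a1, which makes the precursor of proline, fell by 1.31 ± 0.31 (SE) on the log2 scale (limma adjusted p = 0.00818), and Aldh4a1, of proline breakdown, fell by 0.93 ± 0.15 (adjusted p = 0.0013). Aldh16a1 fell by 0.90 ± 0.16 (adjusted p = 0.00252). Aldh7a1, of lysine breakdown, also passed as lower (adjusted p = 0.0316), but it was detected on 2 hypoxic arrays and 0 day 7 arrays, was at least 1.04-fold lower, and kept its call in 8 of 17 alternative settings. Aldh3b1 had a log2 difference of -0.27 ± 0.14 on day 7 (adjusted p = 0.121) and fell by 1.89 over days 1 to 3 (adjusted p = 4.35e-05). Aldh1l1 had -0.11 ± 0.23 on day 7 (adjusted p = 0.699).

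Aldh5a1, the succinate semialdehyde dehydrogenase of GABA breakdown, was the gene that rose, but its probes disagreed. The brightest rose by 1.44 ± 0.14 (limma adjusted p = 0.000141), from readings of 8.88, 8.85 and 9.21 on day 7, against 7.59, 7.57 and 7.46 in hypoxic cells. Another probe of the same transcript, NM_172532, had a difference of -1.36 ± 0.29 (adjusted p = 0.00564 over probes), and the mean over both gave 0.04.

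Among the other aldo-keto reductases, 15 were listed, 13 had a named probe and 5 were measured. Of these 5, 3 rose, 1 fell and 1 did not pass, where 25.9% of all genes passed as higher and 33.7% as lower. Akr1c12, like Akr1c18 a member of the Akr1c family, had the largest fitted difference. It was undetected in hypoxic cells and detected on all 9 normoxic arrays, with 7.54, 7.67 and 7.66 on day 7. The fitted log2 difference was 2.77 ± 0.13 (SE). On day 7 the level was at least 4.78-fold higher, and over days 1 to 3 at least 2.40-fold higher. The gene passed the detection filter through the normoxic arrays alone, so its call is a description, given without a p-value. The fitted difference was as small as 1.21 under an alternative setting. Akr1c6, Akr1c13, Akr1c14, Akr1c19, Akr1c20, Akr1c21, Akr1cl and Akr1d1 were not measured, Akr1c14 being detected on 2 arrays at most.

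Akr1e1 rose by 0.96 ± 0.17 on day 7 (limma adjusted p = 0.00194). Akr1b10 passed with a difference of 0.31 ± 0.11 (adjusted p = 0.0486), but lost the call in 12 of 18 alternative settings. Akr7a5, an aldehyde reductase known for acting on aflatoxin dialdehyde, fell by 0.87 ± 0.14 (adjusted p = 0.0014), and all 3 of its probes had lower means on day 7. Akr1a1, the general aldehyde reductase, had a difference of 0.08 ± 0.11 (adjusted p = 0.577).

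**Figure D3:**
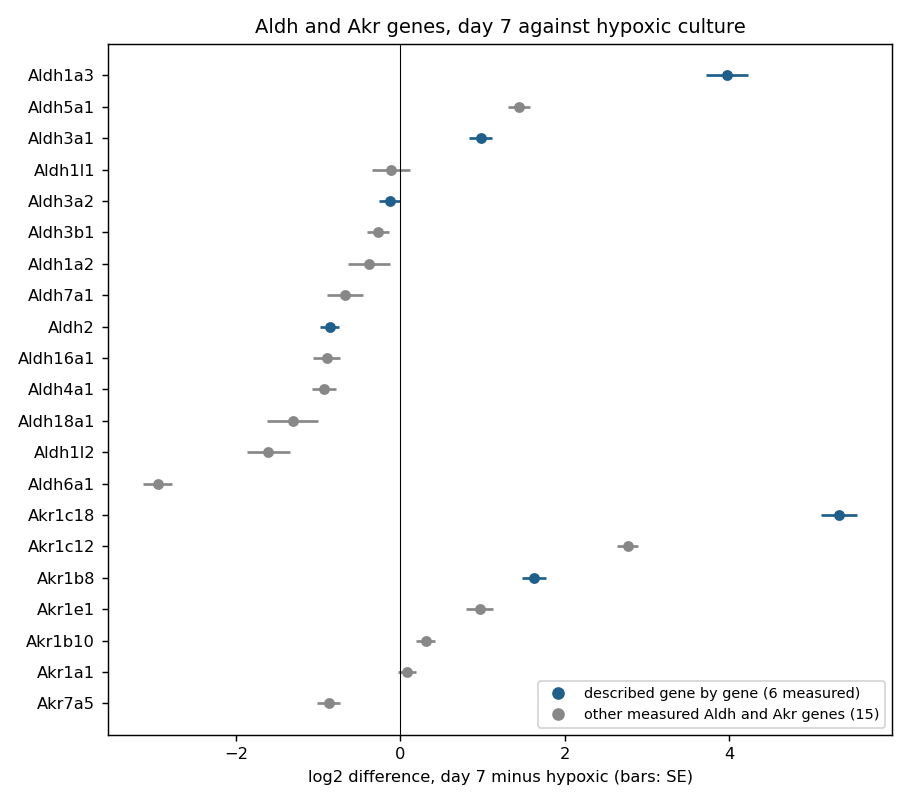
Log2 difference between day 7 and hypoxic culture (3 arrays each, bars are SE of the fit) for the 21 measured Aldh and Akr genes, with the 6 described gene by gene in blue and the other 15 in grey. Akr1c18 is plotted at 5.34 and Aldh6a1 at -2.95. Aldh1a3 (3.97) and Akr1c12 (2.77) were undetected in hypoxic cells, so their points are fitted values against background-level readings.

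Genes that supply retinoids to the Aldh1a enzymes and carry their product were next set beside Aldh1a3. Of 28 genes listed, 13 were measured, of which 6 rose, 0 fell and 7 did not pass on day 7. Stra6, described below without a test, is among the 6. The median log2 difference was 0.37 (all genes -0.11), and 25.9% of all genes passed as higher and 33.7% as lower. With any single array of either triplicate left out, 6 rose in each fit and up to 1 fell. Within set b alone 6 rose and 1 fell, within set a alone 4 rose and 0 fell, and with arrays set to equal medians of all probes 6 rose and 3 fell. The 3 largest fitted rises were those of Crabp2, Rdh10 and Dhrs4.

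Crabp2, which carries retinoic acid to its nuclear receptors, read 10.32, 10.27 and 10.20 on day 7, against 6.88, 7.75 and 7.22 in hypoxic cells, and 11.51 on day 1. It rose by 2.98 ± 0.22 log2 units (limma adjusted p = 4.62e-05). Rdh10, which oxidises retinol to retinaldehyde, read 7.95, 8.43 and 8.24 on day 7, against 6.41, 5.55 and 5.94 in hypoxic cells, and rose by 2.24 ± 0.24 (adjusted p = 0.000201). Dhrs4, a retinal and carbonyl reductase, rose by 1.53 ± 0.18 (adjusted p = 0.000337), and its second probe differed by 1.40. Over the alternative settings the smallest differences were 2.17 for Crabp2, 1.10 for Rdh10 and 0.73 for Dhrs4, all with arrays set to equal medians of all probes.

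Stra6, the membrane receptor for retinol uptake, was undetected in hypoxic cells and detected on all normoxic arrays, as was Aldh1a3. It was chosen after its values were seen, so it is described without a test. It read 7.82, 8.35, 8.19, 8.0, 7.18 and 6.53 on days 1 to 6, and 5.88, 5.64 and 6.78 on day 7. Its level was at least 6.75-fold higher over days 1 to 3 and at least 1.66-fold higher on day 7. The normoxic slope was -0.38 log2 units per day. The retinoic acid hydroxylases Cyp26a1, Cyp26b1 and Cyp26c1 were not among the measured genes.

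Receptors and targets of retinoids did not share 1 direction. Of 28 listed, 16 were measured, of which 3 rose, 8 fell and 5 did not pass on day 7, with a median log2 difference of -0.28. Of all genes, 25.9% passed as higher and 33.7% as lower. With any single array of either triplicate left out, 2 to 3 rose and 6 to 7 fell. In the comparison of days 1 to 3 with hypoxic cells, 2 rose and 2 fell. Rarres1, named for its response to retinoic acid, read 8.52, 8.41 and 7.90 on day 7, against 4.78, 5.27 and 5.71 in hypoxic cells, where 1 of 3 arrays detected it, and rose by 3.03 ± 0.27 (limma adjusted p = 9.78e-05). Rarb, the receptor whose own gene retinoic acid induces, read 7.72, 7.60 and 7.79 on day 7, against 5.68, 5.21 and 5.63 in hypoxic cells, and rose by 2.20 ± 0.16 (adjusted p = 4.4e-05). The smallest differences over the alternatives were 1.47 for Rarres1 and 0.96 for Rarb. Foxa1, a pioneer transcription factor, passed at 0.68 ± 0.22 (adjusted p = 0.0307) and lost the call in 10 of 17 alternative settings. Rxrb, a partner of the retinoic acid receptors, fell by 1.54 ± 0.15 (adjusted p = 0.000153). Its other probes differed by -1.70 and -0.33, and the latter did not pass (adjusted p = 0.149 over probes). Rarres2, which encodes chemerin, fell by 1.36 ± 0.18 (adjusted p = 0.000598), with -0.38 as its smallest difference over the alternatives. Ppard, a receptor for fatty acids, fell by 0.95 ± 0.12 (adjusted p = 0.000372).

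**Figure D4:**
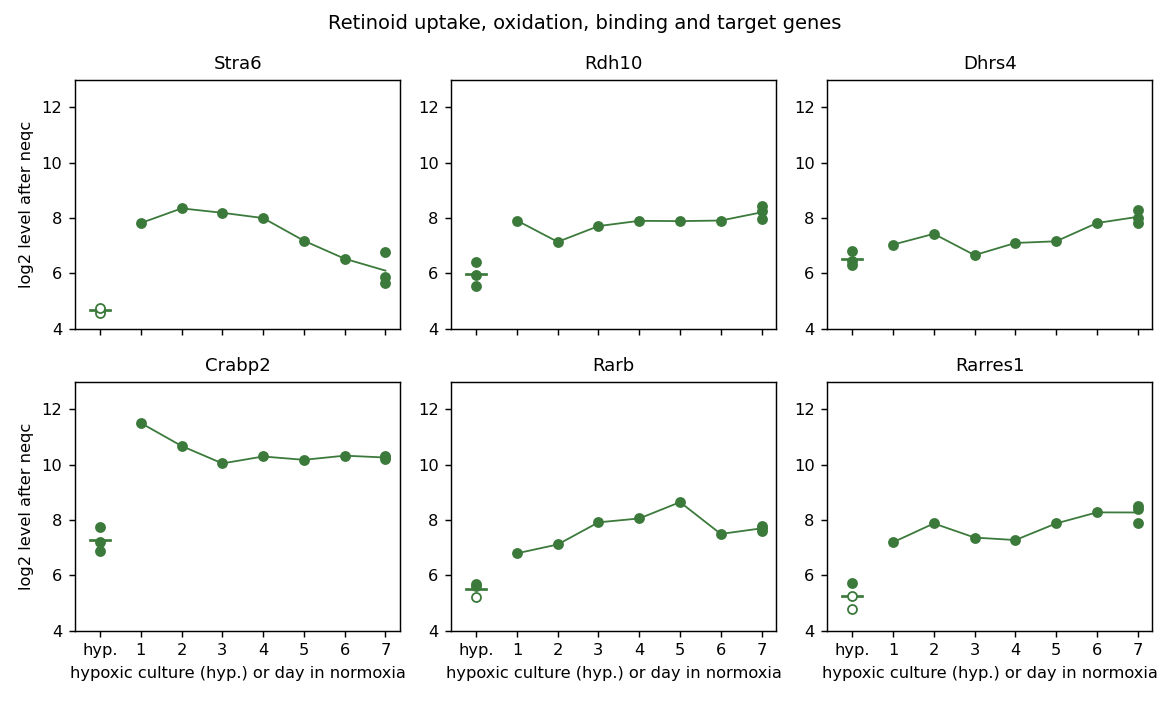
Log2 levels after neqc of 6 retinoid genes in hypoxic culture (hyp., 3 arrays) and on normoxic days 1 to 7 (1 array a day, 3 on day 7), with detected values filled and undetected ones open. Only genes higher on day 7 are drawn, whereas 8 of the 16 measured receptors and targets fell. Crabp2 stands at 10.20 to 10.32 on day 7, above 6.88 to 7.75 in hypoxic cells, and Stra6 peaks at 8.35 on day 2.

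Other enzymes that oxidise or reduce carbonyls moved in both directions. Of 12 measured alcohol dehydrogenases, carbonyl reductases and aldehyde oxidases (21 listed), 5 rose, 4 fell and 3 did not pass on day 7. The shares of all genes were 25.9% higher and 33.7% lower. Cbr3, a carbonyl reductase, rose by 1.98 ± 0.19 (limma adjusted p = 0.000142), with 1.29 as its smallest difference over the alternatives. Esd, an esterase of formaldehyde clearance, rose by 1.11 ± 0.13 (adjusted p = 0.000352), and the prostaglandin reductase Ptgr2 by 0.95 ± 0.15 (adjusted p = 0.00136). Further probes of Esd differed by 0.89, 0.69 and 0.27, and the last did not pass (adjusted p = 0.174 over probes). The carbonyl reductase Cbr2 fell by 1.12 ± 0.19 (adjusted p = 0.00161) and Dcxr, of sugar metabolism, by 0.77 ± 0.13 (adjusted p = 0.00192). Another probe of Dcxr differed by -0.38 and did not pass (adjusted p = 0.102 over probes). Xdh, the purine-degrading xanthine dehydrogenase, fell by 0.61 ± 0.20 (adjusted p = 0.0301), a call that 6 of 18 alternative settings did not keep.

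Enzymes of steroids and prostaglandins, substrates of the Akr1c group, were as divided. Of 16 measured (34 listed), 6 rose, 4 fell and 6 did not pass on day 7, beside 25.9% higher and 33.7% lower among all genes. Ptgs2, the inducible cyclooxygenase, was undetected in hypoxic cells and at least 4.06-fold higher on day 7. It passed the detection filter through the normoxic arrays alone, so its call is likewise a description, given without a p-value. Hsd17b7, of sterol synthesis, rose by 1.06 ± 0.13 (limma adjusted p = 0.000389), and Hsd17b12, of fatty acid elongation, by 0.69 ± 0.13 (adjusted p = 0.00247). H2-Ke6, an older name of Hsd17b8, fell by 1.44 ± 0.17 (adjusted p = 0.000291). Ptgds, a prostaglandin D synthase, was at least 1.81-fold lower (adjusted p = 0.000683), and Hsd11b1, which regenerates glucocorticoids, fell by 0.98 ± 0.17 (adjusted p = 0.00208). The progesterone receptor gene Pgr was detected on no array of either triplicate.

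NRF2 targets moved in both directions. Of 20 measured (25 listed), 8 rose, 4 fell and 8 did not pass on day 7, with a median log2 difference of 0.11. For all genes the median was -0.11, with 25.9% higher and 33.7% lower. Osgin1 rose by 1.86 ± 0.22 (limma adjusted p = 0.000301), Gsta4, a glutathione transferase for lipid aldehydes, by 1.48 ± 0.12 (adjusted p = 6.8e-05), and the quinone reductase Nqo1 by 1.18 ± 0.14 (adjusted p = 0.000339). Gsta3 fell by 4.53 ± 0.23 (adjusted p = 1.6e-05), the cystine carrier Slc7a11 by 2.58 ± 0.24 (adjusted p = 0.00011) and Gstm1 by 2.34 ± 0.11 (adjusted p = 1.5e-05). For each of these 3 a second probe had a smaller difference, of -0.59, -0.34 and -0.32 in the same order, that did not pass. Over the alternative settings the smallest differences were 0.85 for Osgin1, 0.49 for Nqo1, -2.56 for Gsta3, -1.46 for Slc7a11 and -1.33 for Gstm1.

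Of the AhR targets other than Aldh3a1, 7 were listed and 4 measured. Nqo1 (above) and Cyp1b1, which rose by 0.89 ± 0.14 (limma adjusted p = 0.00136), were higher on day 7. Ahrr, the AhR repressor, had a difference of 0.23 ± 0.21 on day 7 (adjusted p = 0.395). Ugt1a6a fell by 0.92 ± 0.20 by its brightest probe (adjusted p = 0.00631), while another of its probes rose by 0.65 (adjusted p = 0.011 over probes). Over days 1 to 3, Nqo1 rose by 1.66, Cyp1b1 by 1.22 and Ahrr by 0.64 (limma adjusted p = 0.0387 for Ahrr), and Ugt1a6a fell by 0.79. Ahrr was detected on all 3 arrays of those days, on 1 hypoxic array and on 0 day 7 arrays.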

How the data were processed

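Total RNA of 12 samples was hybridised to Illumina Mouse WG-6 v2.0 BeadChips, per the labels' protocols. The deposited table held log2 signals, not normalized between arrays (array medians 6.74 to 6.94), and detection p-values for 45281 probes. The deposited detection p-value columns carried no sample names and did not order the signals beside them on any array (0 of 12). Each signal column was ordered exactly by 1 p-value column, and this pairing was taken. The table of processed values from the authors, whose sample names conflict with these (1 of its 6 signal columns held the array of its own label), was used only to infer the 2 sets of arrays. No label names these sets as batches. Scanner software and summarization are not given in the sources used here.

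Signals were processed with neqc of limma 3.58.1 in R 4.3.3 (offset 16), which uses the detection p-values for the background. Probes detected (p-value below 0.05) on at least 3 arrays were kept, 18561 in all, and each of 10365 genes was represented by its kept probe with the highest mean. Names came from the platform annotation (34885 probes with 1 symbol, 18 with several, 10378 unnamed here). A limma model with 8 group means (4 residual degrees of freedom, from the triplicates) gave the differences of day 7 and of days 1 to 3 from hypoxic cells. Single arrays were assumed to have the variance of the triplicates. A slope was fitted over the 9 normoxic arrays (7 residual degrees of freedom). All p-values were 2-sided and adjusted by Benjamini and Hochberg's method, and the model was tested on simulated data. The number of arrays limits the precision of every value.

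The members and gene lists were chosen with earlier results of these data known. In each list the text names the 3 largest rises and falls past the threshold on day 7, every other measured Aldh and Akr gene, and for each measured member the 2 genes most like it. Alternatives were other normalizations, an offset of 50, other detection filters, the mean over a gene's probes, an intensity trend, blocks for replicate number and set, each set alone, and leaving out each replicate.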

Additional observations from a re-analysis of the deposited data

Results flagged for a closer look

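For 6 genes of the lists, each by its brightest probe, every array of days 1 to 3 lay on one side of the hypoxic mean. Every day 7 array lay on the other. In each case days 1 to 3 were lower and day 7 higher. The difference between the periods was not tested. The carbonyl reductase Cbr1 had log2 differences of -0.679 over days 1 to 3 and 0.385 on day 7. Akr1e1 had -0.408 and 0.962 in the same order, and Akr1b10 had -0.337 and 0.308. A second probe of Akr1b10 did not change sides. It read 7.86, 7.75 and 8.08 on days 1 to 3 and averaged 8.09 on day 7, all above its hypoxic mean of 7.62. Hsd3b7, of bile acid synthesis, had -0.681 and 0.654, and the mitochondrial dehydrogenase Hsd17b10 had -0.635 and 0.44. Tgm2, a transglutaminase that retinoic acid induces in several cell types, had -0.135 and 0.343. Tgm2 passed the limma threshold in neither comparison (adjusted p = 0.424 and 0.0559), and Akr1e1 did not over days 1 to 3 (adjusted p = 0.0737). The day 7 calls of Cbr1 and Hsd17b10 were each lost in 9 of 18 alternative settings and that of Akr1b10 in 12, with a smallest difference of 0.03 for Akr1b10. Days 1 to 3 all lie in set b, while day 7 has arrays in both sets.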

How the results depend on the processing

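All 6 member differences between day 7 and hypoxic cells kept their sign under the alternatives run, except that of Aldh3a2, which ranged from -0.25 to 0.07. Aldh1a3 ranged from 2.12 to 4.18 and Akr1c18 from 3.92 to 5.48, with the lowest values when arrays without background correction were set to equal medians of all probes. The NM_053080 probe of Aldh1a3 ranged from 0.23 to 0.79. That scaling gave a median over all genes of -0.19, with 32.7% of calls higher, and equal medians of the probes detected everywhere gave 0.13, with 57.7% higher, against -0.11 and 43.5% in the main setting. Among list genes, 1515 results under alternatives kept the call or its absence, 117 lost the call and 49 gained one. Changes of sign were not counted for genes that did not pass in the main setting. Adh5 is an example, at 0.15 in the main setting and -0.11 under equal medians of all probes. For genes that passed in the main setting, 3 results changed sign. The 3 were Aldh7a1 (0.00732) and Rxra (0.0759) under equal medians of the probes detected everywhere, and Tgif1 (0.0396) with the mean over probes. The cause was not tested.

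Day 7 calls numbered 6184, 4533 within set b alone and 2626 within set a alone. Slope calls numbered 3678, and 2096 with set as a block. Leaving out 1 replicate gave 5485 to 5943 day 7 calls, 4990 to 5820 for days 1 to 3 and 2723 to 3091 for the slope. Deviations of same-numbered replicates were hardly correlated (0.029, -0.0037 and 0.059), as were those of differently numbered ones (-0.11 to 0.078). With 3 replicates a group, these values cannot decide whether replicate numbers pair the samples. The replicate block gave 6000 day 7 calls and changed those of 2 of 95 list genes, Akr1b10 and Hsd17b10. Signals near background leave Aldh1a1 and Aldh1a7 without a comparison and Aldh1a3 with bounds.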
